A study of Mus musculus with 10 samples.

Results

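The interferon regulatory factor genes Irf1, Irf2, Irf3, Irf4, Irf5, Irf7 and Irf9, and Batf2, a leucine zipper gene whose protein pairs with Irf1, were described by their transcript levels in 10 bulk mouse melanoma tumors. These 8 genes were chosen by name out of 29890 genes in the expression table, and all 8 were measured and tested. The tumors grew under the skin of female C57BL/6J mice aged 7 to 8 weeks at injection, all from the 1 melanoma cell line B2905-M4. In 5 tumors the injected cells overexpressed Adamts7, a secreted metalloproteinase, and in the other 5 they carried a vector control; no tumor received immunotherapy. Adamts7 tumors were harvested at day 35 (2 tumors) and day 45 (3 tumors), and vector tumors at day 45 (3 tumors) and day 50 (2 tumors), but the labels tie no day to a tumor. The hosts had their own immune cells, and bulk RNA mixes these with the tumor cells. Fewer cells of a type and less RNA per cell cannot be told apart in such samples.

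Interferon regulatory factors share a DNA-binding domain that recognises repeats of GAAA in the promoters of interferon-induced genes. Irf3, Irf5 and Irf7 are held inactive in the cytoplasm until sensors of foreign nucleic acid trigger their phosphorylation, after which they switch on type I interferon and inflammatory genes. Irf9 is the DNA-binding part of the complex that answers type I interferon, whereas Irf1 is itself induced by interferon-gamma and drives genes of antigen presentation and cell-autonomous defence. Irf2 binds the same sites as Irf1 and often opposes it. Batf2 is induced by interferons and works with Irf1 in macrophages, and Irf4 acts in lymphocytes and, with Mitf, in pigment cells.

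The upstream sequences of Irf1 and Irf2 are shown because they are the only ones, among the 9 upstream windows of 250 bases found for 7 of the 8 genes, that held a match to a searched motif. They come from RefSeq on GRCm38.p6, an older build than the one used for the expression values. Batf2 had no window, so its upstream sequence was not searched. The motifs, searched on both strands, were the interferon-stimulated response element core, which is GAAA followed after any 2 bases by GAAA again, the gamma-activated site TTCNNNGAA, found in genes that answer interferon-gamma, and the AP-1 site TGANTCA, and matches stand in capitals.
Irf1, chr11:53769764-53770013, plus strand: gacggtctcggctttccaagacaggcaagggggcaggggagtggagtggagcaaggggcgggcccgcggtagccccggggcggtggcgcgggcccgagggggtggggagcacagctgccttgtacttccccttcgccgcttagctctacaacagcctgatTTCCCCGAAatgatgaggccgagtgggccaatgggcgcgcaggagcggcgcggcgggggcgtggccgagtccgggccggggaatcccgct
Irf2, chr8:46739495-46739744, plus strand: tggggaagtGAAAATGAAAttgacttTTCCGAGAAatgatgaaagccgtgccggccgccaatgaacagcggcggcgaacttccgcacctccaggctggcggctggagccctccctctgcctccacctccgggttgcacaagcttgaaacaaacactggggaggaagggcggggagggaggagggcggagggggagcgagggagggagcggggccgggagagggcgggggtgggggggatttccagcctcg
The Irf1 window shown held a gamma-activated site 90 to 82 bases before the start, and a second Irf1 window held no match. The Irf2 window held a response element core 241 to 232 bases before the start and a gamma-activated site 224 to 216 bases before it. Of 32851 upstream windows of the same length, 2.98% held the response element core, 7.02% the gamma-activated site and 6.75% the AP-1 site. The matches are descriptions of sequence and not evidence of binding.

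Before the gene results, 3 tumors need naming. The overexpressed gene itself, Adamts7, reached 88.5, 96.0, 78.2 and 74.8 TPM in the first 4 tumors of its group but 18.2 TPM in the tumor labelled Adamts7 5, against 6.49, 6.98, 28.3, 8.57 and 27.6 TPM in vector tumors 1 to 5. The tumor labelled Adamts7 5 therefore lay below vector tumors 3 and 5, and every group difference below takes its label as given. The gene itself did not pass the limma test (log2 fold change 2.21, limma adjusted p = 0.104). The authors' deposited table, made with DESeq2 per the submitters' processing notes, called it higher (log2 fold change 2.32, DESeq2 adjusted p = 0.000817). Vector tumors 3 and 5 also stood apart in cell content. The sum of 14 T cell markers was 29.9 to 67.9 TPM in Adamts7 tumors, against 594 and 473 TPM in vector tumors 3 and 5 and 67.3 to 96.2 TPM in the other 3 vector tumors. The sum of 12 pigment cell markers was 14716 to 26013 TPM in Adamts7 tumors, against 450.4 and 2337 TPM in vector tumors 3 and 5 and 10408 to 20191 TPM in the other 3. Pmel, a defining pigment cell gene, was at 3424 TPM or more in Adamts7 tumors, against 6.13 and 274 TPM in vector tumors 3 and 5. Sox10, a transcription factor of the pigment cell lineage, was at 494 to 725 TPM in Adamts7 tumors, against 269 and 311 TPM in vector tumors 3 and 5, so this lineage marker was present in both while Pmel was low. TPM expresses a transcript's share of the library after correction for gene length and keeps no read depth.

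Batf2 was the only one of the 8 genes that passed the test over all genes, and it fell in Adamts7 tumors. Irf1 did not overlap between the groups either but did not pass. Batf2 stood at 28.7, 28.7, 36.7, 27.0 and 14.9 TPM in Adamts7 tumors 1 to 5, against 53.2, 65.6, 94.5, 75.6 and 75.9 TPM in vector tumors 1 to 5. Every Adamts7 tumor lay below every vector tumor, and the means were 27.2 ± 7.85 TPM in Adamts7 tumors and 72.9 ± 15.2 TPM in vector tumors (SD, n = 5 each), a ratio of 0.373. The log2 fold change was -1.42 with a standard error of 0.23 (limma on log2(TPM + 1), adjusted p = 0.0405 over 15276 genes), and Batf2 ranked 27th of these genes by p. Of all tested genes, 0.196% were called lower in Adamts7 tumors, beside 1 of the 8.

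The Batf2 difference was present without vector tumors 3 and 5, while its call rested on most tumors. Its log2 fold change stayed between -1.54 and -1.07 in 21 other fits, and 9 of these passed, with limma adjusted p-values from 0.00844 to 0.138. The call was lost without Adamts7 tumor 1, 2, 3 or 4 (adjusted p = 0.101, 0.128, 0.0749 and 0.131) and without vector tumor 2, 3, 4 or 5 (adjusted p = 0.0520, 0.0786, 0.113 and 0.106). Leaving out any of these 8 tumors except vector tumor 2 also lowered the number of all genes called lower, to between 5 and 16, against 30 with all tumors.

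Irf1, the interferon-gamma induced activator, was the most abundant of the 8 genes in vector tumors. Irf1 stood at 53.0, 49.5, 63.1, 37.0 and 33.8 TPM in Adamts7 tumors 1 to 5, against 80.6, 94.2, 297, 120.0 and 244 TPM in vector tumors 1 to 5. The groups did not overlap, and vector tumors 3 and 5 were far above the other 3. The means were 47.2 ± 12.01 TPM in Adamts7 tumors and 167 ± 97.3 TPM in vector tumors (SD, n = 5 each), a ratio of 0.282. The log2 fold change of Irf1 was -1.64 (standard error 0.36) and missed the threshold (limma adjusted p = 0.0840). It was the most negative of the 8 values, and 1.27% of all tested genes had a lower one. Irf1 passed in 2 of 21 other fits: with tumor weights (log2 fold change -1.11, adjusted p = 0.0263), and without vector tumors 3 and 5 and the tumor labelled Adamts7 5 (-0.95, adjusted p = 0.0318), where Batf2 passed too (-1.07, adjusted p = 0.0166). Of all genes, 6.26% were called lower with the weights and 4.62% in the smaller set, beside 2 of the 8 in each. Across those 21 fits its limma adjusted p ranged from 0.0263 to 0.221.

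**Figure D1:**
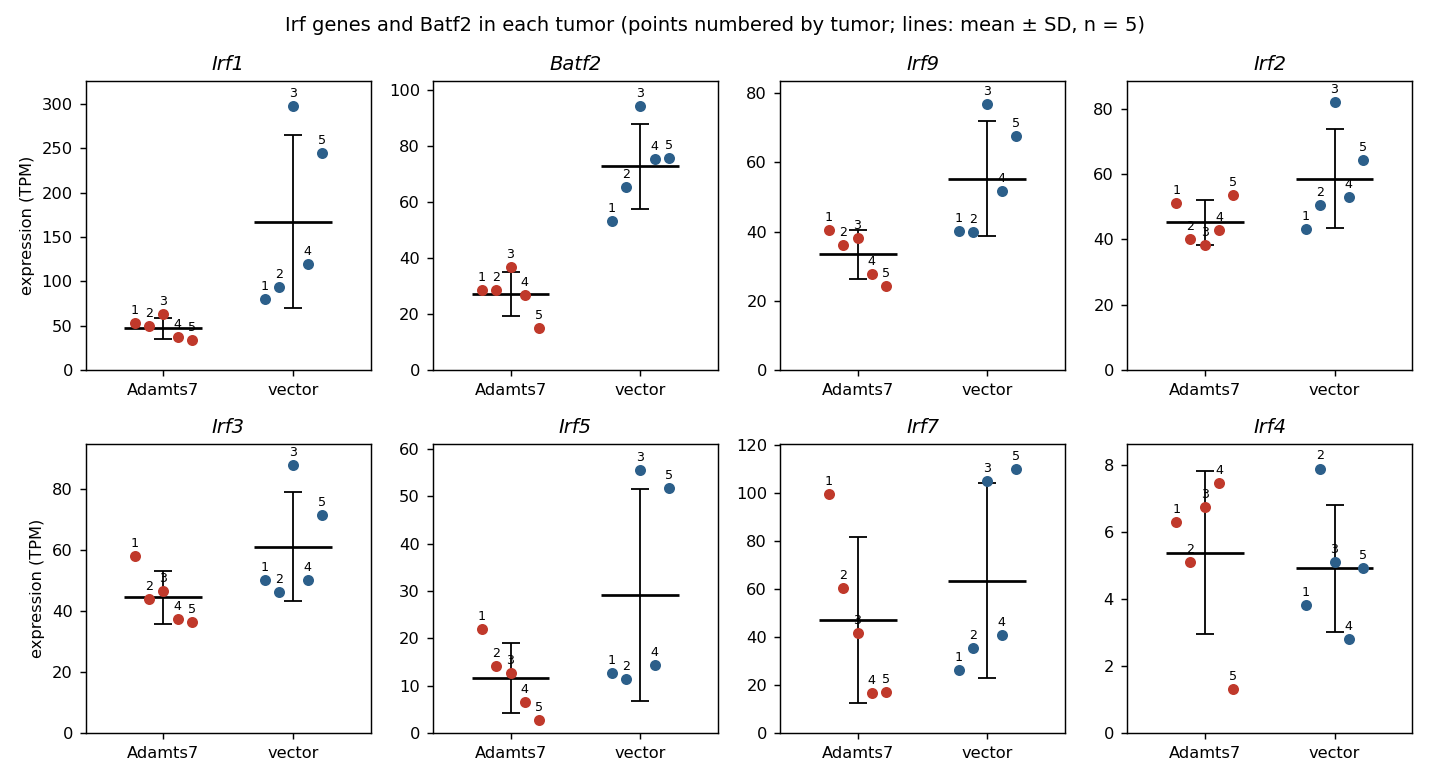
Expression in TPM of the 8 genes in each tumor, with Adamts7 tumors left of vector tumors, 1 numbered point per tumor, and lines for the group mean and SD (n = 5). Batf2 and Irf1 show no overlap between the groups, Irf5 and Irf7 reach their highest levels in vector tumors 3 and 5, and Irf4 is lowest in the tumor labelled Adamts7 5.

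Ifng, which encodes interferon-gamma, also lay lower in every Adamts7 tumor than in every vector tumor. Ifng stood at 0.41, 0.75, 1.34, 0.19 and 0.96 TPM in Adamts7 tumors 1 to 5, against 1.5, 2.52, 33.3, 4.52 and 21.5 TPM in vector tumors 1 to 5. Vector tumors 3 and 5 were highest, and the log2 fold change was -2.29 with a standard error of 0.67 (limma adjusted p = 0.135). The order of the 5 vector tumors by Ifng was also their order by Irf1 and by Batf2, but the orders differed in Adamts7 tumors, where the tumor labelled Adamts7 5 was second highest for Ifng and lowest for Irf1 and Batf2.

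Irf2, the opponent of Irf1, varied least of the 8 genes, with a 2.15-fold range over the tumors, and did not pass. Irf2 stood at 51.1, 40.2, 38.2, 42.9 and 53.5 TPM in Adamts7 tumors 1 to 5, against 43.2, 50.4, 82.0, 52.8 and 64.3 TPM in vector tumors 1 to 5. The groups overlapped, and only vector tumors 3 and 5 exceeded the highest Adamts7 tumor. The log2 fold change was -0.34 with a standard error of 0.18 (limma adjusted p = 0.293).

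The balance of Irf1 to Irf2 within a tumor does not depend on how libraries are scaled, apart from the 1 TPM added before the logarithm. As a log2 ratio it was 0.05, 0.29, 0.71, -0.21 and -0.65 in Adamts7 tumors 1 to 5, against 0.89, 0.89, 1.84, 1.17 and 1.91 in vector tumors 1 to 5. The groups did not overlap. Irf1 and Irf2 transcripts were thus about equally abundant in Adamts7 tumors, with a mean log2 ratio of 0.04 ± 0.51 (SD, n = 5), whereas in vector tumors Irf1 exceeded Irf2 in all 5, with a mean of 1.34 ± 0.50 (SD, n = 5). The difference of the means was -1.30, and it was -0.77 without vector tumors 3 and 5 and the tumor labelled Adamts7 5. The pair was picked with the values known, so no test is given.

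**Figure D2:**
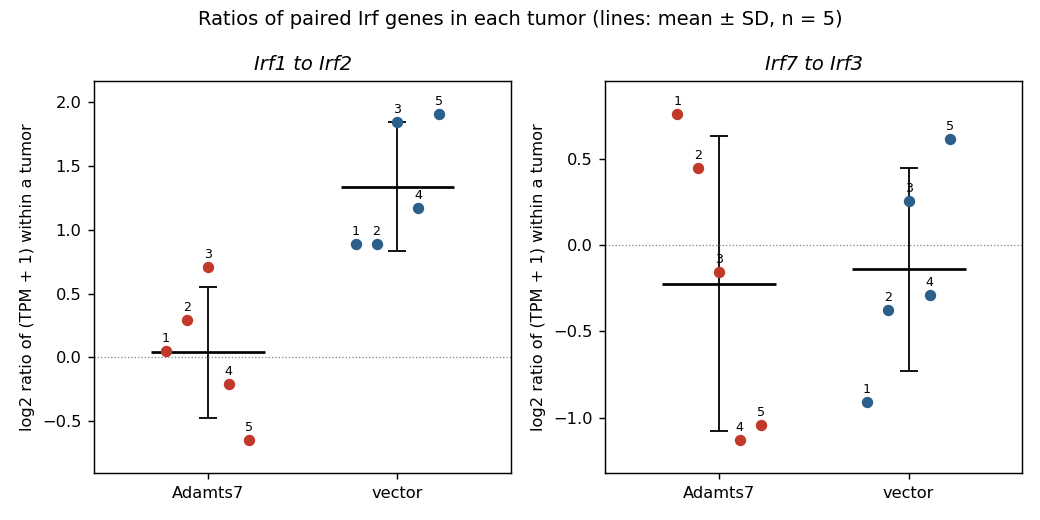
Log2 ratio of (TPM + 1) of Irf1 to Irf2 and of Irf7 to Irf3 within each tumor, with Adamts7 tumors left of vector tumors, numbered points, and lines for mean and SD (n = 5). The Irf1 to Irf2 ratios lie between -0.65 and 0.71 in Adamts7 tumors and between 0.89 and 1.91 in vector tumors, while the Irf7 to Irf3 ratios overlap.

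Irf9, the DNA-binding subunit of the type I interferon response complex, was lower by a smaller amount and did not pass. Irf9 stood at 40.5, 36.1, 38.2, 27.7 and 24.4 TPM in Adamts7 tumors 1 to 5, against 40.1, 40.0, 76.8, 51.7 and 67.6 TPM in vector tumors 1 to 5. Adamts7 tumor 1 lay just above vector tumors 1 and 2, which made the only overlap. The log2 fold change was -0.69 with a standard error of 0.22 (limma adjusted p = 0.147). Stat2, a partner of Irf9 in that complex, averaged 48.6 ± 17.1 TPM in Adamts7 tumors and 97.3 ± 53.8 TPM in vector tumors (SD, n = 5 each), with a log2 fold change of -0.88 (limma adjusted p = 0.221).

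Irf3 and Irf7 stand side by side in the pathway from nucleic acid sensing to type I interferon, Irf3 as the constitutive and Irf7 as the interferon-induced partner. Irf3 stood at 58.1, 43.8, 46.4, 37.4 and 36.5 TPM in Adamts7 tumors 1 to 5, against 50.1, 46.1, 87.7, 50.2 and 71.3 TPM in vector tumors 1 to 5. Its groups overlapped, and its log2 fold change was -0.42 with a standard error of 0.20 (limma adjusted p = 0.262). Irf7 stood at 99.3, 60.1, 41.6, 16.5 and 17.2 TPM in Adamts7 tumors 1 to 5, against 26.2, 35.3, 105, 40.9 and 109.8 TPM in vector tumors 1 to 5. Irf7 did not sort by group: Adamts7 tumor 1 was almost as high as vector tumors 3 and 5, and Adamts7 tumors 4 and 5 were lowest. Its log2 fold change was -0.51 with a standard error of 0.56 (limma adjusted p = 0.609), and its sign turned without vector tumors 3 and 5, to 0.15, and to 0.42 when the tumor labelled Adamts7 5 was dropped as well. The log2 ratio of Irf7 to Irf3 ran from -1.13 to 0.76 in Adamts7 tumors and from -0.91 to 0.62 in vector tumors.

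Irf5, which drives inflammatory cytokine genes in macrophages, ranged most widely of the 8 genes, with a 20.0-fold range from the lowest to the highest tumor. Irf5 stood at 21.9, 14.2, 12.8, 6.51 and 2.78 TPM in Adamts7 tumors 1 to 5, against 12.7, 11.4, 55.5, 14.3 and 51.6 TPM in vector tumors 1 to 5. Only vector tumors 3 and 5 lay above all Adamts7 tumors. The log2 fold change was -1.17 with a standard error of 0.58 (limma adjusted p = 0.284). It was -0.37 without vector tumors 3 and 5 and 0.00 when the tumor labelled Adamts7 5 was dropped as well (adjusted p = 0.812 and 0.998).

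The sum of the macrophage markers, like Irf5, was highest in vector tumors 3 and 5, but not every marker was. The summed level of the 12 macrophage markers was 2434, 1722, 1641, 1039 and 594 TPM in Adamts7 tumors 1 to 5, against 1384, 1596, 6389.9, 1080.3 and 6756 TPM in vector tumors 1 to 5. Lyz2 made up 3010 and 3677 TPM of the sum in vector tumors 3 and 5. Adgre1, Csf1r, Fcgr1, C1qa, C1qb, C1qc, Lyz2 and Aif1 were each highest in these tumors. Cd68 was lower there, at 162 and 158 TPM, than in vector tumors 1, 2 and 4, at 400, 411 and 218 TPM. Mertk was also lower there than in those tumors, and Cd163 and Mrc1 in vector tumor 5 lay below Adamts7 tumor 1. The order of the 5 Adamts7 tumors by the summed markers was also their order by Irf5, whereas in the vector tumors the orders differed. Per 100 TPM of macrophage markers, Irf5 lay between 0.468 and 0.898 TPM in Adamts7 tumors and between 0.717 and 1.32 TPM in vector tumors. Irf7 lay between 1.59 and 4.08 TPM on that scale in Adamts7 tumors and between 1.63 and 3.79 TPM in vector tumors, so both genes overlapped. The part of macrophage content in the Irf5 and Irf7 values was not tested.

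**Figure D3:**
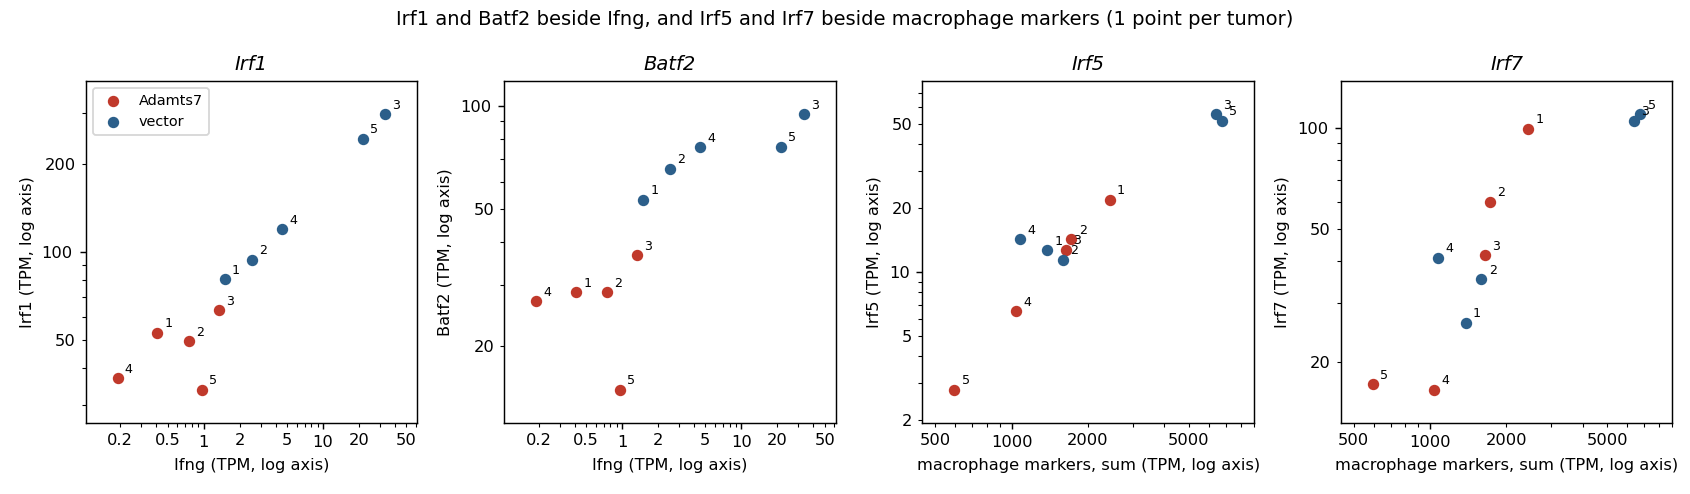
Irf1 and Batf2 against Ifng, and Irf5 and Irf7 against the sum of 12 macrophage markers, in TPM on log axes with 1 numbered point per tumor. Irf1 and Batf2 rank the 5 vector tumors as Ifng does, and vector tumors 3 and 5 stand at the top right of the Irf5 panel at 55.5 and 51.6 TPM.

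Irf4, active in lymphocytes and pigment cells, was the scarcest of the 8 genes and did not follow the others. Irf4 stood at 6.30, 5.09, 6.73, 7.47 and 1.32 TPM in Adamts7 tumors 1 to 5, against 3.83, 7.89, 5.10, 2.81 and 4.92 TPM in vector tumors 1 to 5. Vector tumors 3 and 5, where the T cell marker sums were highest and the pigment cell marker sums lowest, lay in the middle of the range. The log2 fold change was 0.04 with a standard error of 0.36 (limma adjusted p = 0.961), and 0.37 without the tumor labelled Adamts7 5 (adjusted p = 0.334). Its sign turned in 5 of the fits that left out 1 tumor.

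TPM allows levels to be set side by side between genes. In Adamts7 tumors the mean levels ran from Irf1 at 47.2 TPM, through Irf7 at 47.0, Irf2 at 45.2 and Irf3 at 44.4, to Irf9 at 33.4, Batf2 at 27.2, Irf5 at 11.6 and Irf4 at 5.38 TPM. The first 4 were not separated, since Irf1 exceeded Irf7 in 3 of 5 tumors and Irf2 exceeded Irf3 in 2 of 5. From Irf3 down to Irf5, each gene exceeded the next in all 5 Adamts7 tumors. In vector tumors Irf1 stood alone at 167 TPM, above Batf2 in all 5 tumors. Batf2 at 72.9, Irf7 at 63.4, Irf3 at 61.1 and Irf2 at 58.5 TPM followed without a settled order, since Batf2 exceeded Irf7 in 3 of 5 tumors and Irf7 exceeded Irf3 in 2 of 5. Irf9 at 55.2 TPM lay below Irf2 in 4 of 5 vector tumors, and Irf5 at 29.1 and Irf4 at 4.91 TPM came last in all 5. Batf2 thus held the sixth place in Adamts7 tumors and the second in vector tumors.

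**Figure D4:**
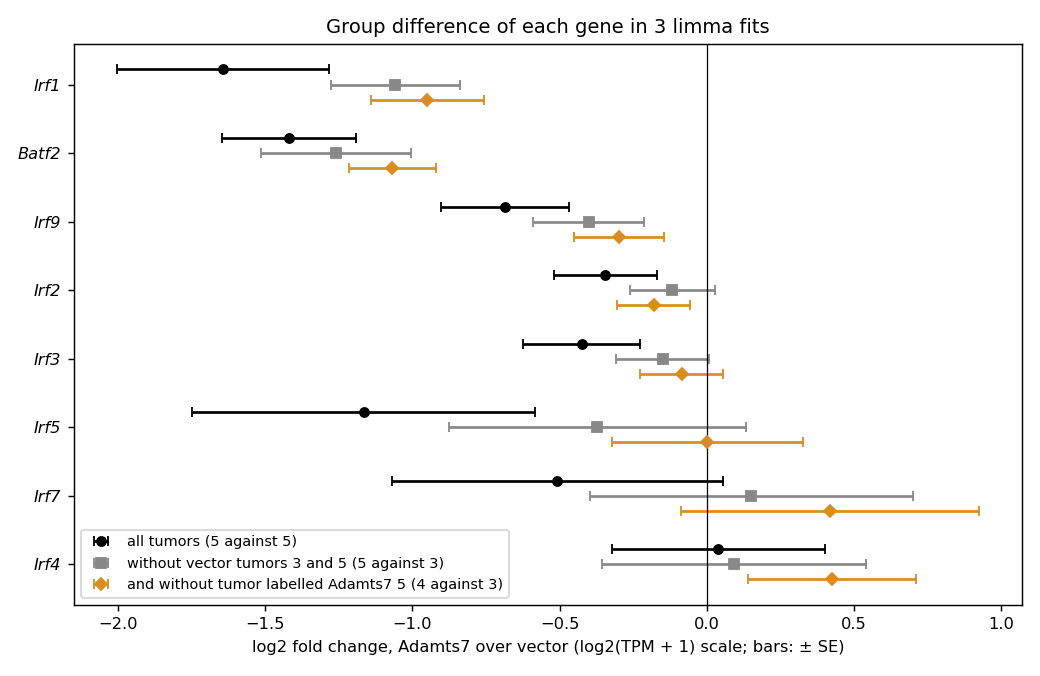
Log2 fold change of Adamts7 over vector tumors with its standard error for the 8 genes, from limma fits with all tumors, without vector tumors 3 and 5, and additionally without the tumor labelled Adamts7 5. Batf2 stays between -1.42 and -1.07, Irf1 lies between -1.64 and -0.95, and Irf7 lies on both sides of 0.

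As a group, 7 of the 8 genes had a negative log2 fold change, with a median of -0.60. Over all tested genes 60.2% were negative and the median was -0.10. In 2 of the 8 genes every Adamts7 tumor lay below every vector tumor, beside 3.78% of all tested genes. At an unadjusted limma p under 0.05, 3 of the 8 were lower, Batf2, Irf1 and Irf9, beside 15.3% of all tested genes. In the authors' deposited table, made with DESeq2 per the submitters' processing notes, Batf2 had a log2 fold change of -1.30 (adjusted p = 1.58e-05) and Irf1 of -1.70 (adjusted p = 0.000476). That authors' deposited table called these 2 of the 8 genes lower, beside 5.48% of its genes. Irf5 at -1.22 and Irf9 at -0.61 did not pass in the authors' deposited table (adjusted p = 0.178 and 0.0764).

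Harvest days differed in part between the groups, so each gene's mean difference was also taken for all 100 ways of choosing 3 Adamts7 and 3 vector tumors as those of the shared day. Batf2 was lower in all 100 sets, with differences of log2(TPM + 1) from -1.80 to -1.02, and Irf1 was lower in all 100, from -2.35 to -0.81. Because the groups of Batf2 and Irf1 did not overlap, no choice of tumors could have given another sign. For these genes only the size of the difference is informative. Irf9 was also lower in all 100, from -1.13 to -0.18. Its groups overlapped only through Adamts7 tumor 1 at 40.5 TPM and vector tumors 1 and 2 at 40.1 and 40.0 TPM. With so small an overlap no set of 3 against 3 could have turned its sign either. Irf2 and Irf3 were each lower in 99 sets, Irf5 in 98, Irf7 in 84 and Irf4 in 49. Which set is the true one is not given, and these values carry no test.

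Irf8 is a further member of the family. Irf8, a factor of macrophages and dendritic cells, stood at 28.6, 20.3, 20.9, 11.98 and 13.1 TPM in Adamts7 tumors 1 to 5, against 25.98, 42.3, 121, 44.7 and 94.8 TPM in vector tumors 1 to 5. Its groups overlapped through vector tumor 1, and its log2 fold change was -1.59 with a standard error of 0.40 (limma adjusted p = 0.108). The authors' deposited table called Irf8 lower (log2 fold change -1.68, DESeq2 adjusted p = 0.00205).

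Genes whose profile over the 10 tumors was closest to that of Irf1, Batf2, Irf9 and Irf7 were taken by the mean absolute difference of log2(TPM + 1) after centring each gene on its own mean. Closest to Irf1 were Tapbpl, a peptide loading factor of MHC class I, Psmb9, an immunoproteasome subunit, and Irgm1, an immunity-related GTPase, at 0.13, 0.14 and 0.14, where the median gene was at 0.82. Irgm1 was itself called lower, with a log2 fold change of -1.69 (limma adjusted p = 0.0481). It was picked for its likeness to Irf1 in these same tumors, so this call is not separate evidence. Closest to Batf2 were Zfp536, Fam89a and Tap2, a subunit of the peptide transporter, at 0.15, 0.15 and 0.19, where the median gene was at 0.69. Closest to Irf9 were Psme1, a proteasome activator subunit, Plpp3, a lipid phosphatase, and Parp3, at 0.08 each, beside a median of 0.43. Closest to Irf7 were Epha2, a receptor tyrosine kinase, Alox5ap, a leukotriene pathway gene of myeloid cells, and Ly6e, an interferon-induced surface protein, at 0.13, 0.17 and 0.18, beside a median of 0.83.

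Of 19 tested genes reported as direct targets of Irf1, 1 passed. All 19 had a negative log2 value (median -1.40), from -2.88 to -0.14, and in 10 every Adamts7 tumor lay below every vector tumor, beside 3.78% of all tested genes. The value nearest 0, -0.14, was that of Lgals3bp (limma adjusted p = 0.673), whose median was 321 TPM in Adamts7 tumors and 307 TPM in vector tumors. Casp1, the inflammasome protease, fell to 25.1 ± 4.71 TPM in Adamts7 tumors, against 67.2 ± 11.8 TPM in vector tumors (SD, n = 5 each; log2 fold change -1.39, SE 0.16, limma adjusted p = 0.0103). Gbp2, a guanylate-binding protein, was at 45.8 ± 12.3 TPM in Adamts7 tumors and 386 ± 279 TPM in vector tumors, with a log2 fold change of -2.72 (limma adjusted p = 0.0606). Psmb9 and Tap1, of antigen processing, had log2 fold changes of -1.61 and -1.36 (limma adjusted p = 0.0606 for each). At an unadjusted p under 0.05, 16 of the 19 were lower, beside 15.3% of all tested genes, and the authors' deposited table called 15 lower, beside 5.48% of its genes. Without vector tumors 3 and 5 the median of the target list was -0.95.

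Reported targets of the Irf9 complex were negative in 21 of 22 cases, at a list median of -0.92 (log2), and limma called 0. At an unadjusted p under 0.05, 12 of the 22 were lower (15.3% of all tested genes), and the authors' deposited table called 6 lower (5.48% of its genes). Zbp1, a nucleic acid sensor, was at 43.0 ± 21.96 TPM in Adamts7 tumors and 139.7 ± 67.2 TPM in vector tumors (SD, n = 5 each), and its groups did not overlap. Parp14, Herc6 and Ifit2 had log2 fold changes of -1.33, -1.38 and -0.78. The limma adjusted p-values of these 4 genes ran from 0.0840 to 0.108, and the list median was -0.45 without vector tumors 3 and 5.

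Upstream gene lists had smaller medians than the target lists. Interferon receptors, JAK kinases and STAT genes had a list median of -0.32 (log2), with 10 of 12 negative, 0 called by limma and 5 lower at an unadjusted p under 0.05 (15.3% of all tested genes); the authors' deposited table called 1 lower (5.48% of its genes). The type I interferon receptor chains Ifnar1 and Ifnar2 had values of -0.38 and -0.58 and the kinase Jak2 of -0.49 (limma adjusted p = 0.109, 0.113 and 0.155). Sensors, adaptors and kinases that act on Irf3, Irf5 and Irf7 had a median of -0.33, with 13 of 19 negative and 0 called. At an unadjusted p under 0.05, 6 were lower (15.3% of all tested genes) and 1 was higher (742 of 15276 tested genes). The authors' deposited table called 0 lower (5.48% of its genes) and 1 higher. It called 1496 of its 18796 genes in either direction, 1030 of them lower. Slc15a4, an endolysosomal transporter needed for Irf5 activation, was at 55.8 ± 3.79 TPM in Adamts7 tumors and 34.6 ± 9.58 TPM in vector tumors (SD, n = 5 each). Its groups did not overlap, with a log2 fold change of 0.71 (limma adjusted p = 0.104). Sting1, Ikbke and Ifih1 had log2 fold changes of -0.42, -0.80 and -0.83 (limma adjusted p = 0.171, 0.200 and 0.218).

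Ifnb1 and Ifnk, 2 type I interferon genes, were listed at 0 TPM in 9 of the 10 tumors each. Ifnb1 was at 0.20 TPM in vector tumor 3, and Ifnk at 0.55 TPM in the tumor labelled Adamts7 5. Ifng was therefore the only one of the 3 interferon genes analysed that reached the filter of 1 TPM.

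The list of signalling inhibitors had negative log2 values in 10 of 10 cases, with a median log2 fold change of -0.65. It holds inhibitors of interferon signalling and also Nfkbia, which encodes an inhibitor of NF-kB. Limma called 0, and 6 were lower at an unadjusted limma p under 0.05 (15.3% of all tested genes). The authors' deposited table called 3 lower (5.48% of its genes). Usp18 is also in the list of Irf9 complex targets. Socs1, which blocks JAK kinases and is also in the Irf1 target list, was at 2.82 ± 1.44 TPM in Adamts7 tumors and 14.7 ± 12.4 TPM in vector tumors (SD, n = 5 each; log2 fold change -1.75). Nfkbia, Ptpn2 and Pias3 had log2 fold changes of -1.0, -0.47 and -0.64, and the limma adjusted p-values of these 4 genes ran from 0.126 to 0.135.

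Relatives and partners of Batf and Irf proteins were negative in 9 of 14 cases, at a list median of -0.24 (log2), and limma called 0. At an unadjusted p under 0.05, 5 were lower (15.3% of all tested genes) and 1 was higher (742 of 15276 tested genes). The authors' deposited table called 4 lower (5.48% of its genes) and 1 higher. It called 1496 of its 18796 genes in either direction, 1030 of them lower. Batf3, the relative of Batf2 needed for cross-presenting dendritic cells, was at 10.9 ± 3.16 TPM in Adamts7 tumors and 23.8 ± 12.7 TPM in vector tumors (SD, n = 5 each; log2 fold change -0.96). The lymphocyte factors Ikzf1 and Ikzf3 had log2 fold changes of -1.47 and -1.48, and Jun, a partner of Batf proteins, of 0.38. The limma adjusted p-values of these 4 ran from 0.142 to 0.178. Of Irf8 and the Irf2-binding genes, 2 of 4 were negative and 0 were called. At an unadjusted p under 0.05, 2 were lower (15.3% of all tested genes) and 1 was higher (742 of 15276 tested genes). The authors' deposited table called 2 lower (5.48% of its genes), Irf8 among them. Irf2bp2 had a log2 fold change of -0.71, Irf2bpl of 0.40 and Irf2bp1 of 0.32 (limma adjusted p = 0.109, 0.237 and 0.303).

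**Figure D5:**
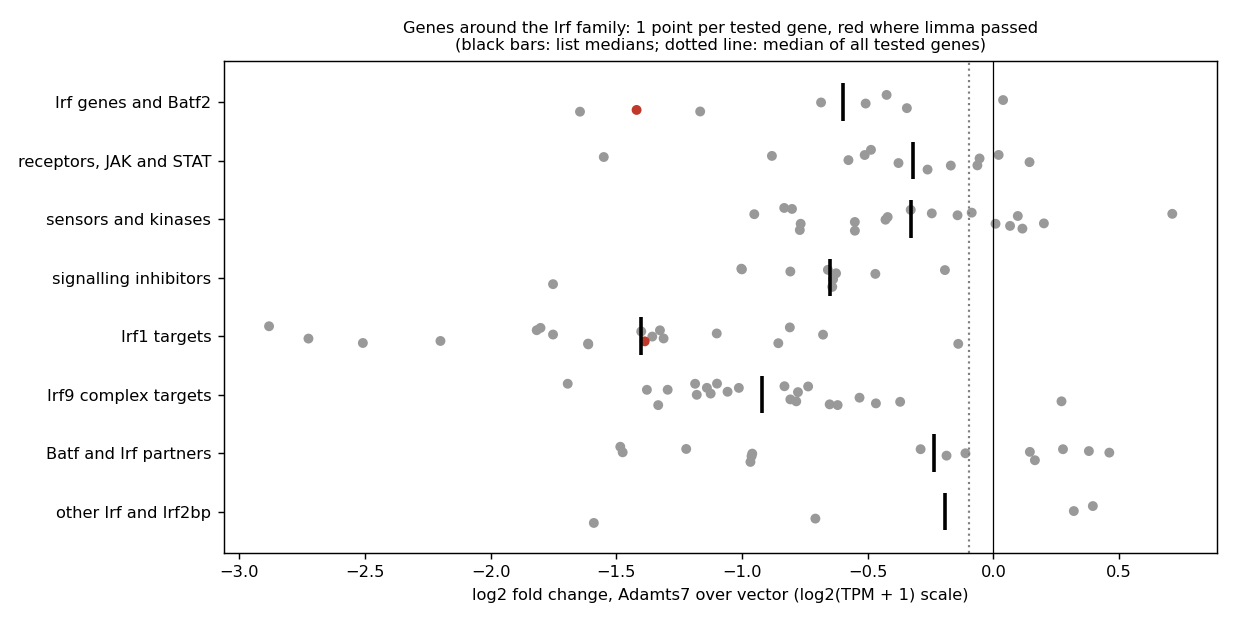
Log2 fold change of Adamts7 over vector tumors for each tested gene of the 8 genes and of 7 lists around them, with red points where limma passed, black bars for list medians and a dotted line at the median of all tested genes, -0.10. Irf1 targets lie furthest to the left with a median of -1.40; Ifng, the only tested interferon gene, is not drawn.

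Most markers of immune cells had negative log2 values. Limma called 0 genes in each of the marker lists. All 14 T cell markers, 9 natural killer cell markers and 10 dendritic cell markers were negative on the log2 scale, with medians of -1.67, -1.34 and -1.04; 14, 7 and 5 of them were lower at an unadjusted p under 0.05 (15.3% of all tested genes), and the authors' deposited table called 13, 8 and 4 lower (5.48% of its genes). The summed natural killer cell markers were 3.29 to 27.7 TPM in Adamts7 tumors and 15.1 to 229 TPM in vector tumors, and the summed dendritic cell markers 23.9 to 87.8 TPM in Adamts7 tumors and 47.4 to 294 TPM in vector tumors. For 6 general leukocyte markers the sums were 117 to 506 TPM in Adamts7 tumors and 307 to 1683 TPM in vector tumors. Macrophage markers were negative in 10 of 12 with a median of -0.71, B and plasma cell markers in 4 of 5 tested with a median of -0.91, and neutrophil markers in 2 of 3 tested with a median of -1.07. In those 3 lists 2, 2 and 0 markers were lower at an unadjusted p under 0.05, and the authors' deposited table called 2 lower in each. The sums of endothelial and fibroblast markers overlapped between the groups, at 71.1 to 151 and 326 to 1751 TPM in Adamts7 tumors, against 112 to 186 and 424 to 1373 TPM in vector tumors. Of these, 7 of 8 and 5 of 8 were negative, with medians of -0.28 and -0.22; 3 and 0 were lower at an unadjusted p under 0.05, and the authors' deposited table called 0 lower in each. The plasmacytoid dendritic cell sum, 121 to 174 TPM in Adamts7 tumors and 96.9 to 164 TPM in vector tumors, was mostly Tcf4, which was at 119.8 to 172 TPM in Adamts7 tumors and 80.6 to 161 TPM in vector tumors. Of that list 3 of 4 tested were negative with a median of -0.86, 2 were lower at an unadjusted p under 0.05 and 1 was called lower in the authors' deposited table. Ly6d of that list was at 0.24 to 0.46 TPM in Adamts7 tumors and 1.52 to 12.97 TPM in vector tumors, with no overlap. Keratinocyte markers summed to at most 0.45 TPM in Adamts7 tumors and 4.51 TPM in vector tumors. Mitochondrially encoded transcripts summed to 63323 to 76949 TPM in Adamts7 tumors and 49839 to 63049 TPM in vector tumors, with no overlap. Of these 13, 6 were higher at an unadjusted p under 0.05, beside 742 of all 15276 tested genes. The authors' deposited table also called 6 higher. It called 1496 of its 18796 genes in either direction, 1030 of them lower. All 12 pigment cell markers had positive values with a median of 2.16, and 2 were higher at an unadjusted p under 0.05 (742 of 15276 tested genes). The authors' deposited table called 0 of these 12 in either direction. No marker was at 0 in all 10 tumors. Siglech, a marker of plasmacytoid dendritic cells, which are rich in Irf7, was at 0.00 to 0.20 TPM in Adamts7 tumors and 0.14 to 2.39 TPM in vector tumors. The part of these cell types in the Irf1 and Batf2 differences was not tested; without vector tumors 3 and 5, where the T cell, natural killer cell, dendritic cell and macrophage sums were highest, the log2 fold changes of Batf2 and Irf1 were -1.26 and -1.06 (limma adjusted p = 0.102 and 0.108; 0 of the 8 called, beside 0.202% of all genes).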

How the data were processed

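RNA of 10 tumors was sequenced after poly(A) selection, per the labels' protocols, and titles gave the groups. The authors deposited log2(TPM + 1) values per gene symbol, with RSEM and mm39 named in the submitters' processing notes; the aligner and annotation are not given in the sources used here. For near-identical genes RSEM estimates how reads are shared, so such values are uncertain. Sums of TPM were 995286 to 998019 per tumor, TPM keeps no depth, and no counting interval is given. The second table deposited by the authors holds, per gene, p-values, a score, a log2 fold change, the standard error of that change, and a mean of normalized counts (a signal), with DESeq2 named in the submitters' processing notes; 28805 of its 30040 identifiers matched a symbol.

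The 15276 genes averaging 1 TPM or more over all tumors entered limma 3.58.1 (R 4.3.3) on log2(TPM + 1). The model held the group alone with a trended prior, and p-values were adjusted by Benjamini-Hochberg, with calls at 0.05. This scale understates changes of low genes. Simulated tables of 15276 genes, made with this comparison's gene variances, returned 59.8%, 88.0% and 95.8% of changes of 1, 2 and 3 on the log2 scale. They gave 8.2 false calls per run. The simulation changed no genes of low level, drew genes independently and gave all tumors equal variance. The real tumors were unequal, with estimated weights from 0.26 (vector tumor 3) to 2.83 (Adamts7 tumor 3). These rates therefore need not hold for the real comparison. Other tables were made in Python 3.11.15 with pandas 2.3.3. Lists were described by counts and medians, without set tests. Genes named were the 8, Adamts7, Irf8, Ifng, marker genes, up to 4 of each pathway list with the smallest p, and the 3 genes closest to Irf1, Irf7, Irf9 and Batf2. Stat2, Ifnb1 and Ifnk were named after their values were seen. The 8 genes, the lists and the alternatives were chosen with earlier results of these data known. No 2 tumors had identical values. Nothing given here says that tumors came from separate cell populations, so p-values measure the spread between these tumors. Alternatives were other pseudocounts, filters, scalings and prior variance, tumor weights, a replicate block, tumors left out, and sets of 3 against 3 tumors. Some results for genes of these lists are not reported here. The receptor repertoire table was not used here.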

Additional observations from a re-analysis of the deposited data

Results flagged for a closer look

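Irf4 was at 1.32 TPM in the tumor labelled Adamts7 5, far from the other 4 Adamts7 tumors, which lay between 5.09 and 7.47 TPM. Its gap to the nearest of them was 0.745 of the whole range of the group on the log2(TPM + 1) scale, above Dixon's critical value of 0.71 for 5 samples. Of 16 groups examined (8 genes in 2 groups), 1 was marked in this way, and chance marks about 1 in 20. The same tumor was the lowest of all 10 for Irf1, Irf3, Irf5, Irf9 and Batf2. Its summed leukocyte markers, 117 TPM, were also the lowest of all 10. Its summed pigment cell markers, 14716 TPM, were the lowest of the Adamts7 tumors but above vector tumors 3, 4 and 5. The part of these cell types in the Irf4 value was not tested.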

How the results depend on the processing

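Without a filter on low values 1 gene was called higher and 9 lower, 0 of the 8 genes were called and Batf2 had a log2 fold change of -1.42 (limma adjusted p = 0.0908). A filter at a mean of 5 TPM gave 2 genes higher. Median-of-ratios scaling gave 8 higher and 21 lower, quantile normalization 10 higher and 20 lower, and a constant prior variance 8 higher, against 4 higher and 30 lower as reported. Over all tested genes the log2 median was 0.01 and 0.04 under these 2 scalings, against -0.10. Quantile normalization left 0 of the 8 called, with Batf2 at -1.35 (adjusted p = 0.0583). Tumor weights gave 263 higher, 956 lower, 2 of the 8 and 21 genes of the pathway lists (1 as reported), with Irf1 at -1.11 and Irf7 reversed at 0.056. With the tumor number as a replicate block 0 genes were called higher, 0 lower, 0 of the 8 and 0 of the pathway lists, and Batf2 was at -1.42 (limma adjusted p = 0.138; unadjusted p = 0.000299). Tumors of the same number had correlations of deviations from -0.28 to 0.26, and 1 of 5 Adamts7 tumors was most alike its own number. These values show no pairing by number, but 5 pairs are too few to settle whether the numbers pair tumors.

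Without vector tumors 3 and 5, 0 of the 8 were called, Batf2 was at -1.26 and Irf7 reversed at 0.15. Also without the tumor labelled Adamts7 5, 225 genes were higher and 689 lower, with 2 of the 8 and 11 pathway genes; Irf1 was at -0.95, Irf5 at 0.00163, Irf7 at 0.42 and the log2 ratio of Irf1 to Irf2 differed by -0.77. Over the sets of 3 against 3 tumors, untested differences ran from -2.35 to -0.81 for Irf1, -0.68 to 0.0087 for Irf2, -0.78 to 0.0096 for Irf3, -0.55 to 0.71 for Irf4, -2.29 to 0.29 for Irf5, -1.73 to 0.89 for Irf7, -1.13 to -0.18 for Irf9 and -1.80 to -1.02 for Batf2.

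Leaving out 1 tumor at a time gave 0 to 170 genes higher and 5 to 487 lower. The number lower was 487 without the tumor labelled Adamts7 5, and 41 and 44 without vector tumors 1 and 2. Of the 8, 0 to 1 were called, beside 0.0326% to 3.18% of all genes called lower. In 2 to 3 of the 8 the groups did not overlap, 3 of them without Adamts7 tumor 1. Every Adamts7 tumor lay below every vector tumor in 4.04% to 9.47% of all genes, and in 6.47% without Adamts7 tumor 1. Pathway genes called numbered 1 to 11, and the median of the 8 ran from -0.81 to -0.42. Irf1 ran from -1.86 to -1.39, Irf2 from -0.44 to -0.22, Irf3 from -0.52 to -0.29, Irf4 from -0.11 to 0.37, Irf5 from -1.44 to -0.79, Irf7 from -0.85 to -0.23, Irf9 from -0.79 to -0.56 and Batf2 from -1.54 to -1.23. The differences in log2 ratio ran from -1.47 to -1.13 for Irf1 to Irf2 and from -0.33 to 0.14 for Irf7 to Irf3. The ratios were added with the data seen. The cause of these shifts was not tested. TPM keeps no depth, so the counting error of the low genes Irf4 and Ifng is unknown.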
